A study of Mus musculus with 30 samples.

Results

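Kidney tubule injury genes were followed in whole kidneys of male mice with or without deletion of the EGF receptor (EGFR) in vascular smooth muscle cells (VSMC). The group was a list of 10 gene symbols (Havcr1, Lcn2, Clu, Krt8, Krt18, Krt19, C3, Cp, Fgb and Cdkn1a), each looked up in the deposited kidney count table, in which every symbol occurred in 1 row of 41128 genes. All 10 passed the low count filter that left 15034 genes for testing. RNA was depleted of ribosomal RNA and sequenced, and the values are counts of reads assigned to genes. Levels are given as FPM, the count per 1000000 counts of the library after TMM scaling, and where genes are compared with each other as FPM per kb of exon.

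KO mice carried Egfr flox/flox alleles and Smmhc-Cre, a tamoxifen-activated Cre under the Smmhc (Myh11) promoter that sits on the Y chromosome, so that recombination was aimed at smooth muscle and not at tubule cells. WT mice carried the same Cre but no loxP sites. All mice of both genotypes received tamoxifen (1 mg per day for 5 days), were labelled C57Bl6J and were 6 weeks of age when a high-fat diet (HFD) began, and kidneys were taken after 18 weeks of HFD or standard-fat diet (SFD). There were 4 kidneys, each from its own mouse, in each of 4 groups. Totals lay between 16354880 and 28331314 counts in WT-SFD, 17616939 and 21137341 in WT-HFD, 18327872 and 19814411 in KO-SFD and 17487556 and 21799372 in KO-HFD. The summed level of 12 proximal tubule markers was 12587 to 25403 FPM and that of 7 thick ascending limb markers 4112 to 9450.3 FPM, so the labelled tissue carried its defining transcripts in all 16 libraries. Some libraries stood apart in their cell type markers. WT-HFD replicates 1 and 2 and KO-HFD replicate 2 held 313, 278 and 781 FPM of lymphocyte markers, mostly Ighm, against 12.4 to 135 FPM in the other 13, and KO-HFD replicate 3 had both the highest proximal tubule and the lowest thick limb sum. Genes on chromosomes 9, X, Y and MT and on part of chromosome 8 had no count in any library and were not analysed here; none of the 10 genes lies there. Gene positions below are those of GRCm38.

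A tubule cell that is stressed or damaged loses part of its transport programme and switches on genes for surface receptors, secreted proteins and intermediate filaments that are low in a resting nephron. Havcr1 (KIM-1, a phosphatidylserine receptor of the proximal tubule) and Lcn2 (NGAL, an iron-siderophore carrier secreted by distal segments) are in wide use as injury markers, and clusterin, fibrinogen, complement C3 and ceruloplasmin are secreted proteins that injured epithelium can make in addition to the liver. Krt8 and Krt18 form the keratin pair of simple epithelia, Krt19 marks ducts and urothelium, and Cdkn1a encodes the cell cycle inhibitor p21, a target of p53.

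Egfr itself was measured at 50.3 ± 8.12 FPM in WT-SFD, 45.9 ± 8.29 in WT-HFD, 53.5 ± 5.77 in KO-SFD and 43.1 ± 2.08 in KO-HFD (mean ± SD, n = 4 in each). KO differed from WT by a log2 fold change of 0.09 on SFD (edgeR quasi-likelihood test, adjusted p = 0.848) and -0.09 on HFD (adjusted p = 1.0). Tubule cells, which were not the target of the Cre, also express Egfr, so the whole-kidney count does not check the deletion in smooth muscle. In KO mice all 4 HFD kidneys lay below all 4 SFD kidneys for Egfr, without passing the threshold (log2 fold change -0.31, adjusted p = 0.261), beside 3.86% of genes tested whose groups were separated in that direction.

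Per length, keratin 8 and clusterin transcripts were the most abundant of the 10 and those of Havcr1 and Fgb the least. Krt8 was highest at 80.3 ± 14.7 FPM per kb (mean ± SD over 16 libraries), followed by Clu at 58.9 ± 11.4 and Krt18 at 19.1 ± 10.4, and each of these 3 exceeded the next gene in all 16 libraries. Krt19 (6.97 ± 3.65), C3 (6.23 ± 2.50) and Cp (5.63 ± 1.77) could not be ordered: Krt19 was above C3 in 9 of 16 libraries and C3 above Cp in 8 of 16. Cdkn1a (2.71 ± 0.801 FPM per kb) lay below Cp in all 16 libraries and above Lcn2 (1.58 ± 0.696) in 14 of 16. The lowest pair was Havcr1 at 0.501 ± 0.266 and Fgb at 0.444 ± 0.390, Havcr1 being the higher in 11 of 16 libraries. Spread between mice was unequal as well: the highest library exceeded the lowest by 1.82 times for Krt8 and 2.11 times for Clu, but by 11.7 times for Krt19 and 23.3 times for Fgb. The plot of levels per length shows this order.

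**Figure D1:**
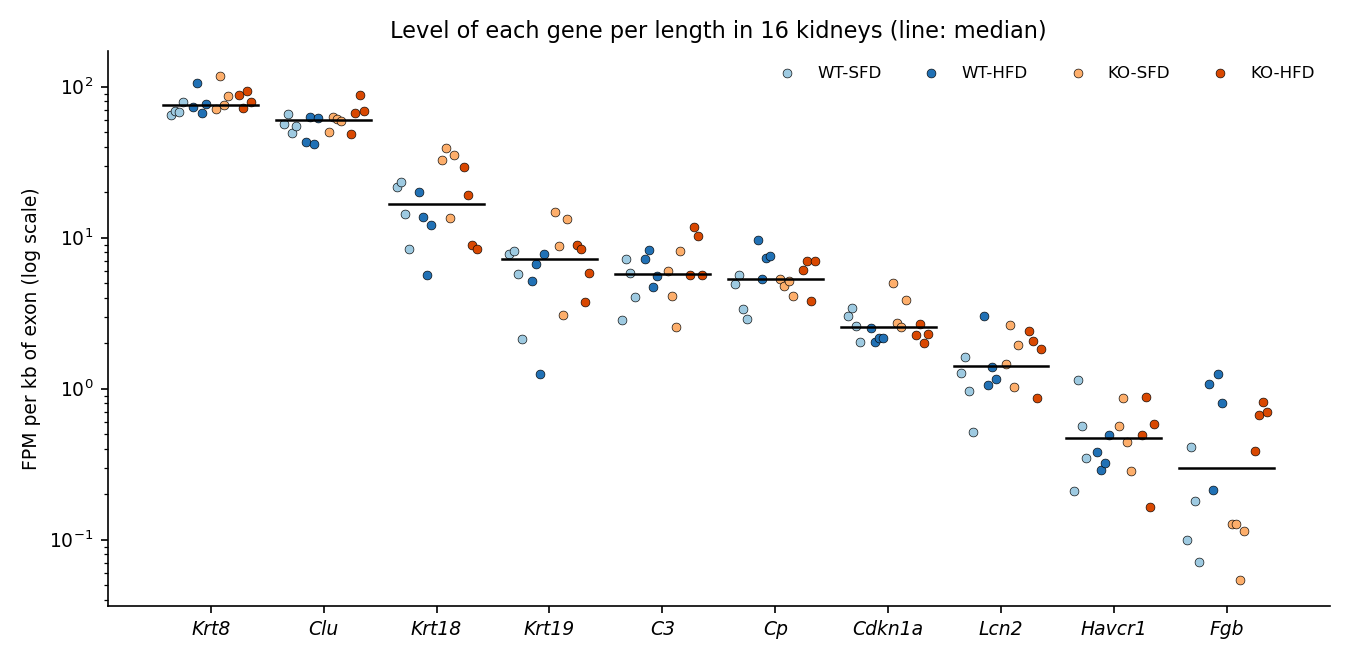
Level of each gene in FPM per kb of exon (log axis) in each of 16 kidneys, coloured by group, with the median as a line. Krt8 and Clu sat above the other genes in every kidney, and Fgb spread over 23.3 times from its lowest to its highest kidney, from 0.0536 to 1.25 FPM per kb.

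The effect of 18 weeks of HFD was asked first. In WT kidneys 0 of the 10 genes were called at an adjusted p under 0.05 (edgeR quasi-likelihood test, Benjamini-Hochberg over 15034 genes), where 0.911% of all genes tested were called, and 2 of the 10, Fgb and Cp, had an unadjusted p under 0.05, beside 1188 of 15034 genes. DESeq2 called these 2 genes, beside 263 of the 15028 genes it tested. In KO kidneys 1 of the 10, Fgb, was called, beside 2.3% of all genes tested (1.53% called as higher), and 2, Fgb and Cdkn1a, had an unadjusted p under 0.05, beside 2382 of 15034 genes. With the diet effect averaged over both genotypes, so that 8 kidneys stood against 8, the 1 called was again Fgb, beside 4.48% of all genes (2.89% called as higher), and 4, Fgb, Cp, Cdkn1a and C3, had an unadjusted p under 0.05, beside 2693 of 15034 genes. At the stricter limit of 0.001 used in the study's methods 0 of the 10 were called in WT, in KO or averaged, beside 0.153%, 0.319% and 0.984% of all genes. The median log2 fold change of the 10 genes was 0.04 in WT and 0.02 in KO kidneys, and the median of all genes tested was within 0.01 of 0 in both. With single mice left out, this median lay between -0.079 and 0.21 for WT kidneys, between -0.11 and 0.27 for KO kidneys, and with the summed level of 9 urothelium markers as a covariate, chosen after seeing the data, it was 0.20 and 0.24.

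Fgb (ENSMUSG00000033831), which encodes the beta chain of fibrinogen, rose on HFD. In WT-SFD kidneys its level was 0.379, 1.57, 0.685 and 0.269 FPM (7, 25, 20 and 6 reads), and in WT-HFD kidneys 4.11, 0.816, 4.77 and 3.06 FPM (89, 16, 84 and 64 reads). Of the WT-HFD kidneys, 3 lay above every WT-SFD kidney, and the fourth, replicate 2, lay within their range. In KO-SFD kidneys the level was 0.482, 0.485, 0.204 and 0.437 FPM (10, 9, 4 and 8 reads), and in KO-HFD kidneys 1.46, 2.55, 3.10 and 2.66 FPM (27, 59, 49 and 53 reads). The KO groups did not overlap, which was so, in this direction, for 5.01% of genes tested.

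Averaged over genotypes, Fgb rose 5.20-fold on HFD (95% interval 2.97 to 9.09, log2 fold change 2.38 ± 0.381 SE, edgeR adjusted p = 0.00107). In KO kidneys alone it rose by 2.59 ± 0.559 on the log2 scale (adjusted p = 0.0193), and in WT kidneys the log2 fold change was 2.17 ± 0.519 (adjusted p = 0.0666). An exact permutation test of log2 FPM, two-sided, gave p = 0.0286 in KO, the smallest that 4 against 4 allows, and p = 0.0571 in WT. The diet effect did not differ detectably between the genotypes (interaction 0.41 on the log2 scale, 95% interval -1.18 to 2.01, adjusted p = 1.0). With 4 to 25 reads per SFD kidney, the size of the fold is imprecise. The call in KO kidneys was lost without KO-SFD replicate 2 (log2 fold change 2.68, adjusted p = 0.0549), KO-SFD replicate 3 (2.37, 0.0658), KO-HFD replicate 3 (2.46, 0.0584) or KO-HFD replicate 4 (2.54, 0.0534). The WT difference passed without WT-SFD replicate 2 (2.79, 0.0188) or WT-HFD replicate 2 (2.50, 0.0102). The averaged call held at 0.05 in all 23 refits (adjusted p from 8.19e-08 to 0.0289). At the limit of 0.001 the edgeR fit to all 16 libraries did not pass, and refits lay on both sides. With the thick limb sum as a covariate, chosen after seeing the data, the KO call was also lost (2.53, adjusted p = 0.148). In KO mice this sum itself separated the diets, at 8395 to 9450 FPM on SFD and 4112 to 7301 FPM on HFD. Fits with it, here and below, therefore cannot tell the diet from the sum in KO mice. They called 28 genes there, against 346 without it. Without the 3 lymphocyte-rich libraries the averaged log2 fold change was 2.51 (adjusted p = 0.00144). All 3 are HFD kidneys, so refits without them, here and below, compared fewer HFD mice. They called 369 genes for the average, against 674 with all libraries, and 51 in WT, against 137.

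Fibrinogen is a hexamer of alpha, beta and gamma chains, and the 3 genes lie side by side on chromosome 3 (GRCm38): Fgg at chr3:83007724-83015049 on the plus strand, Fga at chr3:83026076-83033627 on the plus strand and Fgb at chr3:83040141-83049863 on the minus strand, with 11026 bases between Fgg and Fga and 6513 between Fga and Fgb. Since only Fgb of the 3 passed the test on HFD, the bases just before each start are shown, taken from RefSeq promoter windows on GRCm38.p6, 5′ to 3′ on the strand of the gene and ending at the base before the start. Capitals mark TTCNNNGAA, the letters of a STAT element, and TGANTCA, the letters of an AP-1 element, each searched on both strands.
Fgb, chr3:83049864-83050113, minus strand: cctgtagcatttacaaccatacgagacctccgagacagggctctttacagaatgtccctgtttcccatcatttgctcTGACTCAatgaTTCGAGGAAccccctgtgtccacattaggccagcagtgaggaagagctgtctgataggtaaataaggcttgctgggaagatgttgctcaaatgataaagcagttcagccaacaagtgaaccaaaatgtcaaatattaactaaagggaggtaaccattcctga
Fga, chr3:83025903-83026075, plus strand: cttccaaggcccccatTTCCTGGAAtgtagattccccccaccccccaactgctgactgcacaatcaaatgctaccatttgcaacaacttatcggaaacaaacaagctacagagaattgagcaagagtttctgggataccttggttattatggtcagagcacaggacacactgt
Fgg, chr3:83007474-83007723, plus strand: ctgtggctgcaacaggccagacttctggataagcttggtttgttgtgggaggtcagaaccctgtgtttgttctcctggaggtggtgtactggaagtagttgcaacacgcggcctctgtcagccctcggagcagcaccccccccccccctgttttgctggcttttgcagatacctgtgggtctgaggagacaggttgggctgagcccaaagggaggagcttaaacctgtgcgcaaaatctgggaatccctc
The Fgb window held TGACTCA starting 173 bases and TTCGAGGAA starting 162 bases before the RefSeq start, and these did not overlap. The Fga window, shown up to the GENCODE start because its RefSeq start lies inside the GENCODE gene, held TTCCTGGAA 234 bases before the RefSeq start, and the Fgg window held neither. Of 32851 RefSeq windows of 250 bases, 7.02% held the STAT letters and 6.75% the AP-1 letters. A match of letters describes the sequence and does not show that a factor binds.

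Kidney Fga and Fgg were far more abundant than Fgb and passed the test in no diet comparison. Per length, WT-SFD kidneys held 8.15 ± 1.89 FPM per kb of Fga, 5.46 ± 2.15 of Fgg and 0.190 ± 0.155 of Fgb (n = 4), and WT-HFD kidneys 9.53 ± 1.62, 6.38 ± 2.60 and 0.837 ± 0.455. In KO kidneys Fga went from 7.09 ± 1.61 on SFD to 9.35 ± 0.965 FPM per kb on HFD, Fgg from 4.25 ± 1.28 to 6.42 ± 1.78 and Fgb from 0.105 ± 0.0350 to 0.642 ± 0.183. Averaged over genotypes, the log2 fold change was 0.31 for Fga (edgeR adjusted p = 0.181) and 0.41 for Fgg (adjusted p = 0.338). Fgb therefore stayed the minor chain on either diet. Of the hepatocyte markers, the liver being the main source of plasma fibrinogen, Ahsg had between 0 and 3 reads per library. Alb rose on HFD (log2 fold change 0.78, adjusted p = 0.0113) and so did Ttr (log2 fold change 1.94, adjusted p = 2.08e-05), while the summed level of the list was 1295 to 2687 FPM, most of it Cyp2e1. The Alb call was lost without the 3 lymphocyte-rich libraries (0.71, adjusted p = 0.0988) and with the thick limb sum as a covariate (0.37, adjusted p = 0.276). Apoc3 and Tat were listed at 0 and lie in regions without counts. The part of hepatic RNA in the Fgb level was not tested. In bulk tissue, a change in the number of cells of a type and a change in RNA per cell cannot be told apart.

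**Figure D2:**
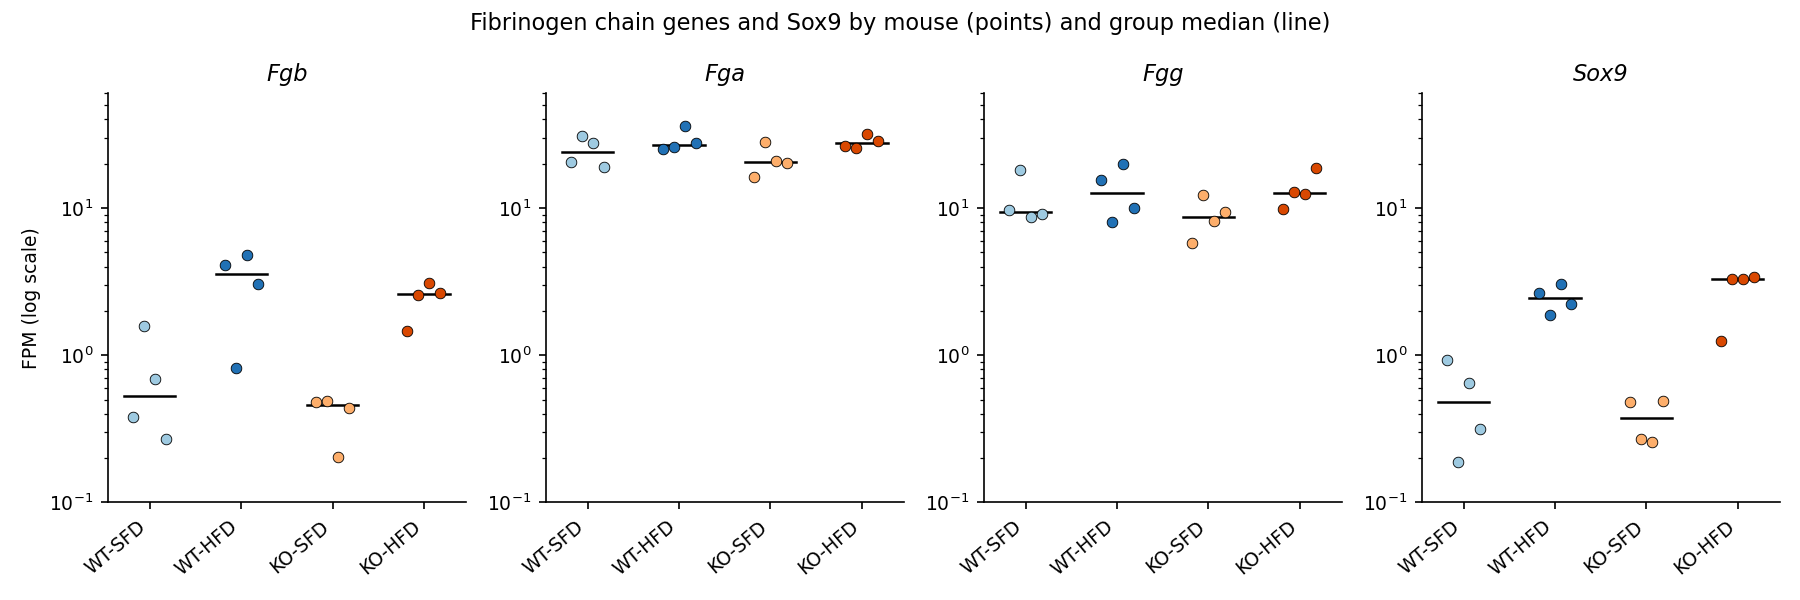
FPM (log axis) of the 3 fibrinogen chain genes and of Sox9 in each of 16 kidneys, with the group median as a line. The medians of Fgb and Sox9 were higher on HFD in both genotypes, with WT-HFD replicate 2 within the SFD range for Fgb, while Fga and Fgg overlapped between diets.

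The other secreted proteins did not pass the test. Cp (ENSMUSG00000003617, chr3:19957054-20009145, plus strand) encodes ceruloplasmin, the copper-carrying ferroxidase of plasma. Its level was 47.3, 54.1, 32.2 and 27.8 FPM in WT-SFD, 92.8, 50.9, 69.8 and 72.8 in WT-HFD, 51.1, 45.7, 49.6 and 39.0 in KO-SFD and 58.2, 66.9, 36.4 and 67.2 in KO-HFD kidneys. WT-HFD replicate 2 lay among the WT-SFD kidneys, and KO-HFD replicate 3 lay below all KO-SFD kidneys. The log2 fold change on HFD was 0.83 ± 0.226 SE in WT (edgeR adjusted p = 0.128), 0.30 ± 0.225 in KO (adjusted p = 0.543) and 0.57 ± 0.159 averaged (adjusted p = 0.0534), so Cp did not pass. It was called for the average without WT-SFD replicate 2 (adjusted p = 0.0322), WT-HFD replicate 2 (0.0318) or KO-HFD replicate 3 (0.0211). DESeq2 (adjusted p = 0.0169) and a fit with the urothelium sum as a covariate (0.0276) also called it. Without WT-HFD replicate 1 the averaged log2 fold change was 0.49, and without the 3 lymphocyte-rich libraries 0.52 (adjusted p = 0.174). In KO it was 0.48 without KO-HFD replicate 3. With the thick limb sum as a covariate it was 0.71 in KO and 0.85 averaged (adjusted p = 0.0501 for the average). Exons of Cp share 108 of 9566 bases with Hps3 on the opposite strand. Those of Cdkn1a (273 of 3553 bases), Krt8 (101 of 1958) and Fgg (115 of 2093) also overlap an annotated gene on the opposite strand, and whether counting used strand is not given in the sources used here.

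C3 (ENSMUSG00000024164, chr17:57203970-57228136, minus strand), the central complement component, was measured at 25.7 ± 9.97 FPM in WT-SFD, 33.1 ± 8.23 in WT-HFD, 26.8 ± 12.5 in KO-SFD and 42.7 ± 16.1 in KO-HFD (SD, n = 4). Its averaged log2 fold change on HFD was 0.52 (95% interval 0.00 to 1.04, edgeR adjusted p = 0.278). The highest C3 level, 60.0 FPM, was in KO-HFD replicate 2, the kidney with the highest summed lymphocyte markers (781 FPM, mostly Ighm) and macrophage markers (656 FPM, mostly Cd74). The next, 52.7 FPM, was in KO-HFD replicate 3, which held 26.3 FPM of lymphocyte markers. Over the 16 libraries r of C3 was 0.646 with macrophage, 0.588 with lymphocyte and 0.487 with adipocyte markers. Within groups it was 0.674, 0.546 and 0.704, and the part of these cells in the C3 level was not tested. Without the 3 lymphocyte-rich libraries the averaged log2 fold change of C3 was 0.24 (adjusted p = 0.743), and that in WT kidneys was 0.04 against 0.37 with them.

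Of 23 genes tested from a wider list of 29 acute phase and complement genes, 4 rose and 1 fell on HFD averaged over genotypes. Of all genes tested 4.48% were called for this contrast (2.89% as higher), and the list median was 0.27 on the log2 scale. C1ra and C1s1, the proteases that start the classical complement pathway, had log2 fold changes of 0.76 (edgeR adjusted p = 0.00102) and 0.56 (adjusted p = 0.0172), C4b 0.91 (adjusted p = 0.0127) and the complement inhibitor Cfi 0.72 (adjusted p = 0.0106). Cfd, which encodes adipsin and is strongest in fat cells, fell by 3.87 on the log2 scale (adjusted p = 0.00986). C1ra rose in WT kidneys from 14.2 ± 1.01 to 27.2 ± 3.71 FPM (adjusted p = 0.0101) and did not pass in KO kidneys (16.8 ± 3.96 to 25.2 ± 5.64 FPM, adjusted p = 0.094). The difference between the genotypes did not pass either (interaction -0.35, adjusted p = 1.0). Without the 3 libraries that held over 250 FPM of lymphocyte markers, the averaged calls of C4b (0.75, adjusted p = 0.0972), Cfi (0.69, adjusted p = 0.0697), C1s1 (0.49, adjusted p = 0.0933) and Cfd (-4.40, adjusted p = 0.0707) were lost. They were also lost with the thick limb sum as a covariate, where the log2 fold changes were 0.56, 0.45, 0.63 and -3.68 (adjusted p = 0.218, 0.207, 0.0909 and 0.0864). Adipocyte markers, Fabp4 being the most abundant, summed to 80.4 to 484 FPM, with means of 135 ± 63.6 in WT-SFD, 123 ± 25.4 in WT-HFD, 253 ± 189 in KO-SFD and 148 ± 50.6 in KO-HFD, and their part in the Cfd result was not tested.

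Havcr1, Lcn2 and Clu, the injury proteins of the proximal and distal tubule, were not called in any comparison. Havcr1 (ENSMUSG00000040405, chr11:46735080-46779578, plus strand) was low, with 6 to 47 reads per kidney: 0.488, 2.64, 1.30 and 0.806 FPM in WT-SFD, 0.878, 0.663, 0.738 and 1.15 in WT-HFD, 1.30, 1.99, 1.02 and 0.655 in KO-SFD and 1.14, 2.03, 0.380 and 1.36 in KO-HFD. All 4 groups overlapped, and the averaged diet difference was -0.29 on the log2 scale with a 95% interval of -1.03 to 0.46, which runs from 0.488 to 1.37 times the SFD level. Without WT-SFD replicate 2, the kidney at 2.64 FPM, it was -0.020. Lcn2 (ENSMUSG00000026822, chr2:32384633-32388252, minus strand) was 2.86 ± 1.24 FPM in WT-SFD, 4.35 ± 2.43 in WT-HFD, 4.63 ± 1.80 in KO-SFD and 4.71 ± 1.73 in KO-HFD. Its highest value, 7.95 FPM, was in WT-HFD replicate 1, and the averaged diet difference was 0.33 (95% interval -0.28 to 0.93, edgeR adjusted p = 0.589). It was 0.087 without that kidney and 0.094 without the 3 lymphocyte-rich libraries, and 0.64 and 0.81 with the summed level of 9 urothelium markers and with the thick limb sum as a covariate. Neutrophils also make Lcn2, and the summed level of 7 neutrophil markers was 0.546 to 4.44 FPM, S100a9 being the most abundant; it was 0.601 FPM in WT-HFD replicate 1.

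Clu (ENSMUSG00000022037, chr14:65968483-65981547, plus strand), which encodes the secreted chaperone clusterin, was among the steadier genes. It was 194 ± 23.6 FPM in WT-SFD, 179.8 ± 39.2 in WT-HFD, 201 ± 19.0 in KO-SFD and 234 ± 56.2 in KO-HFD. Its averaged diet difference was 0.05 on the log2 scale (95% interval -0.20 to 0.31). On HFD, the difference of KO from WT in Clu was 0.38 ± 0.171 SE (edgeR adjusted p = 1.0), and the groups overlapped. The highest value, 304 FPM, was in KO-HFD replicate 3, the kidney with the highest proximal tubule (25403 FPM) and the lowest thick limb marker sum (4112 FPM). Without this kidney the difference of KO from WT on HFD was 0.24. With the thick limb sum as a covariate, chosen after seeing the data, the averaged diet difference of Clu was -0.31.

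**Figure D3:**
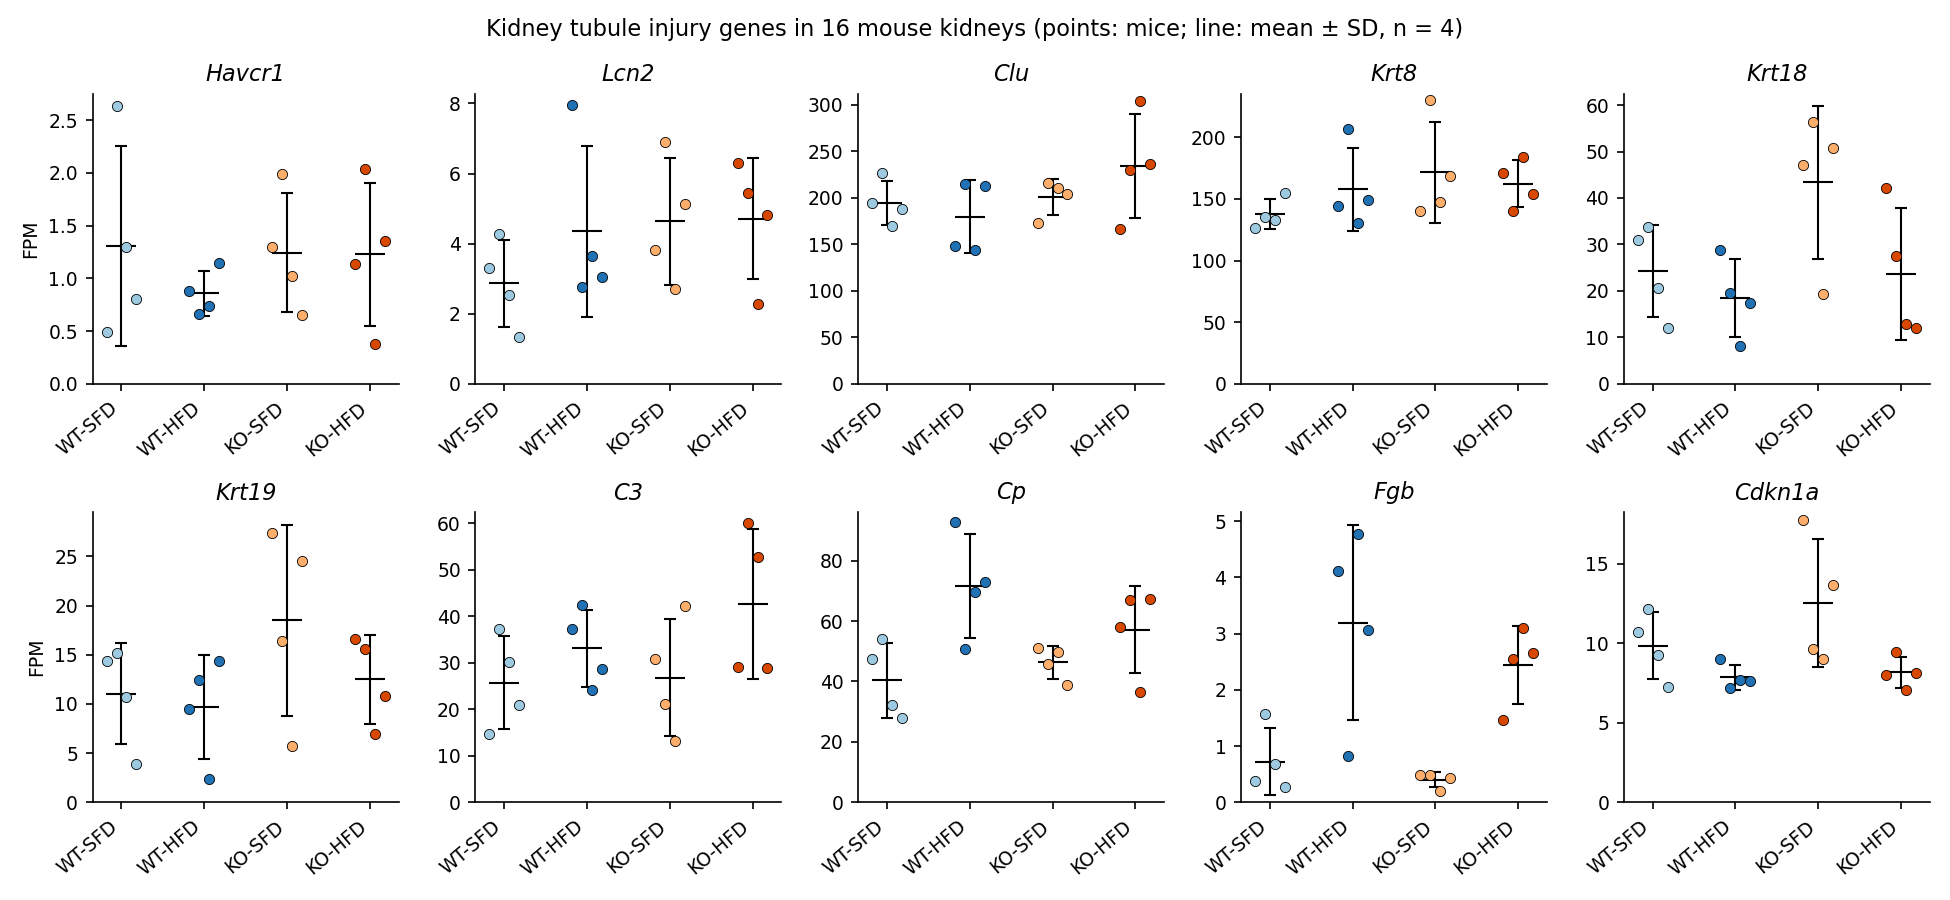
FPM (linear axes from 0) of each of the 10 genes by group, with 1 point per mouse and the mean ± SD of 4 mice. Mean Fgb was higher on HFD in both genotypes (0.726 and 0.402 FPM on SFD, 3.19 and 2.44 on HFD), and for the other 9 genes the groups overlapped in each comparison of 4 against 4.

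A wider list of 32 tubule injury and repair genes held 28 that were tested, of which 3 rose and 2 fell on HFD averaged over genotypes (list median -0.05). For this contrast 4.48% of all genes tested were called, 2.89% as higher. Sox9, a transcription factor that surviving tubule cells switch on during repair, was 0.921, 0.188, 0.650 and 0.314 FPM in WT-SFD, 2.64, 1.89, 3.07 and 2.24 in WT-HFD, 0.482, 0.269, 0.255 and 0.491 in KO-SFD and 1.25, 3.28, 3.29 and 3.42 in KO-HFD. Every HFD kidney lay above every SFD kidney, which was so in this direction for 0.998% of genes tested, and Sox9 rose 5.85-fold (log2 fold change 2.55 ± 0.295 SE, edgeR adjusted p = 4.31e-05). Counts on SFD were low, 0.188 FPM in WT-SFD replicate 2 being 3 reads, so the size of the fold is imprecise. Sox9 was called in each genotype (WT adjusted p = 0.0101, KO adjusted p = 0.00118), though in WT not without the 3 lymphocyte-rich libraries (log2 fold change 2.31, adjusted p = 0.0891) and in KO not with the thick limb sum as a covariate (2.93, adjusted p = 0.0603).

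Spp2, a secreted phosphoprotein, rose 4.02-fold averaged over genotypes (adjusted p = 7.36e-06), from 106.5 ± 14.96 to 409 ± 92.3 FPM in WT mice, and from 107 ± 37.3 to 451 ± 166 FPM with the deletion. Vcam1, an adhesion molecule of inflamed endothelium and of tubule cells that fail to repair, rose by a log2 fold change of 0.58 (adjusted p = 0.0076). Itgb6, an epithelial integrin subunit, fell by 0.87 on the log2 scale (adjusted p = 0.0103) and Dcdc2a by 0.49 (adjusted p = 0.033), a call that was lost in 10 of 16 fits that each left out 1 mouse. The Itgb6 and Dcdc2a calls were lost without the 3 lymphocyte-rich libraries (-0.71 and -0.47, adjusted p = 0.0517 and 0.134) and with the thick limb sum as a covariate (-0.69 and -0.19, adjusted p = 0.147 and 0.418). Dcdc2a was also lost with library totals without TMM (-0.48, adjusted p = 0.0962) and with the urothelium sum (-0.44, adjusted p = 0.0754). Spp1 (osteopontin), the most abundant gene of the list, did not pass (-0.30, adjusted p = 0.19).

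The keratins were steady for Krt8 and highly variable for Krt18 and Krt19. Krt8 (ENSMUSG00000049382, chr15:101996698-102004482, minus strand) was 137 ± 12.2 FPM in WT-SFD, 158 ± 33.6 in WT-HFD, 172 ± 41.0 in KO-SFD and 162 ± 19.2 in KO-HFD, with an averaged diet difference of 0.06 on the log2 scale (95% interval -0.18 to 0.30). Krt18 (ENSMUSG00000023043, chr15:102028180-102032027, plus strand), its filament partner, whose gene lies 23697 bases from Krt8, was 31.0, 33.7, 20.7 and 12.1 FPM in WT-SFD, 28.8, 19.6, 8.18 and 17.3 in WT-HFD, 47.1, 56.3, 19.3 and 50.8 in KO-SFD and 42.2, 27.4, 12.8 and 12.1 in KO-HFD. In KO-SFD 3 kidneys were above all others and the fourth, replicate 3, was not. Krt19 (ENSMUSG00000020911, chr11:100140810-100148665, minus strand) was 14.4, 15.2, 10.7 and 3.94 FPM in WT-SFD, 9.52, 12.4, 2.33 and 14.4 in WT-HFD, 27.3, 16.4, 5.72 and 24.6 in KO-SFD and 16.6, 15.6, 6.90 and 10.9 in KO-HFD. None of these 3 keratins was called in any of 7 comparisons.

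On SFD, the log2 difference of KO from WT was 0.84 ± 0.442 SE for Krt18 (edgeR adjusted p = 0.629), 0.75 ± 0.510 for Krt19 (adjusted p = 0.676) and 0.32 ± 0.161 for Krt8 (adjusted p = 0.616). In KO mice the difference of HFD from SFD was -0.87 for Krt18 (adjusted p = 0.355) and -0.56 for Krt19 (adjusted p = 0.625). On SFD the genotype difference was 0.14 for Krt8 without KO-SFD replicate 2 and 0.47 for Krt19 without WT-SFD replicate 4, and the diet difference of Krt19 in KO mice was -0.31 without KO-SFD replicate 1. Across the 16 libraries Krt18 and Krt19 varied together (Pearson r = 0.837, permutation p = 6e-05, adjusted over the 45 pairs of members p = 0.0027, Spearman rho = 0.859 with permutation p = 6e-05, r = 0.797 without the 2 libraries farthest from the Krt18 median), whereas Krt8 and Krt18 did not pass (r = 0.228, permutation p = 0.397). Within groups r of Krt18 and Krt19 was 0.835 (permutation p = 0.00197, adjusted p = 0.0886).

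Markers of urothelium, the lining of the renal pelvis, were highest in the kidneys with the most Krt18. The summed level of the 9 listed urothelium markers (Psca the most abundant, Upk2 listed at 0 in a region without counts) was 77.3, 66.6, 53.7 and 18.2 FPM in WT-SFD, 61.9, 36.1, 12.9 and 39.3 in WT-HFD, 142, 101, 26.2 and 108 in KO-SFD and 109, 77.8, 17.1 and 19.8 in KO-HFD. The 3 KO-SFD kidneys with the most Krt18 and the KO-HFD kidney with 42.2 FPM were also the 4 kidneys above the rest in the sum of these markers, and the kidney with the least Krt18 and Krt19, WT-HFD replicate 3, had the lowest sum. With this sum as a covariate, chosen after seeing the data, the difference of KO from WT on SFD was 0.33 for Krt18 and 0.16 for Krt19, and the averaged diet difference of Krt19 turned from -0.37 to 0.24. The diet difference of Krt18 in KO mice, -0.87 with no covariate, was -0.34 with this sum and -0.29 with the thick limb sum. The part of urothelium in the differences of Krt18 and Krt19 was not tested beyond these fits. Over the 16 libraries, r with the urothelium sum was 0.962 for Krt18 and 0.874 for Krt19. With the summed collecting duct principal cell markers it was 0.898 and 0.73, and the part of those cells was not tested. The genes most like Krt19 over the 16 libraries were Sprr2a1 (r = 0.96), Upk3a (0.95) and Sprr2a2 (0.95), of which the Sprr2a pair are near-identical copies, and those most like Krt18 were S100a6 (0.96), Csrp1 (0.95) and Fam171a2 (0.94). The most like Krt8 were Clic1, Ubald2 and Gstt2 (r = 0.93 for each). These r values are descriptions over 16 libraries, for which the genes were picked by size of r.

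**Figure D4:**
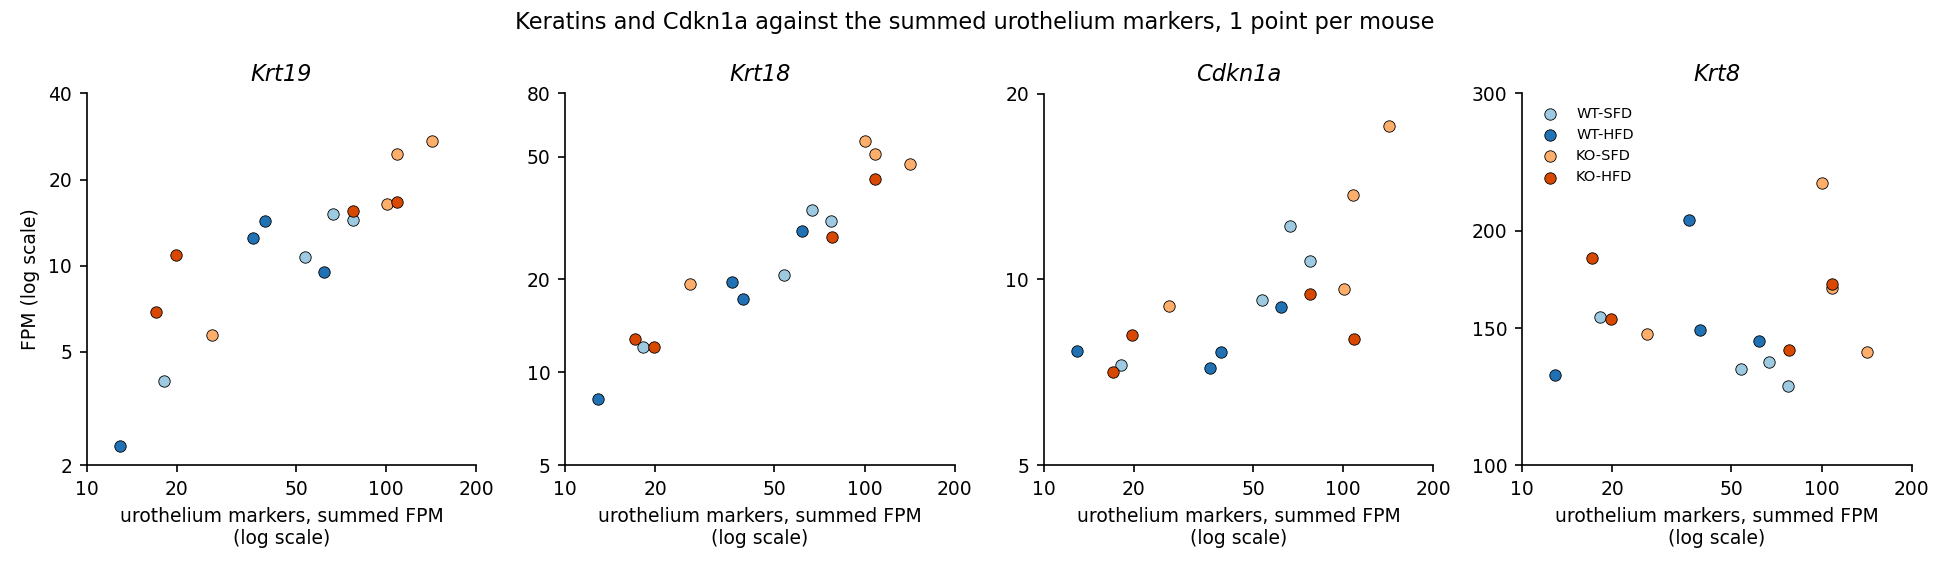
FPM of Krt19, Krt18, Cdkn1a and Krt8 (log axes) against the summed FPM of urothelium markers (log axis), with 1 point per kidney coloured by group. Krt18 and Krt19 climb with the markers over their range from 12.9 to 142 FPM, and Krt8 stays between 126 and 230.3 FPM.

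Beside 4.48% of all genes called for HFD averaged over genotypes, 0 of 15 other keratin and desmosome genes tested rose and 1 fell. This was Krt7, a keratin of collecting duct and urothelium, which stood at 118 ± 17.9 FPM in WT-SFD, 99.2 ± 10.1 in WT-HFD, 159 ± 17.8 in KO-SFD and 107 ± 16.3 in KO-HFD (averaged log2 fold change -0.41, edgeR adjusted p = 0.0137). It was called in KO kidneys (-0.57, adjusted p = 0.026) and not in WT (-0.25, adjusted p = 0.691), and the interaction did not pass (-0.32, adjusted p = 1.0). With the urothelium sum as a covariate Krt7 still passed (-0.32, adjusted p = 0.0263), and with the thick limb sum it did not (-0.29, adjusted p = 0.183).

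Cdkn1a had lower means on HFD in both genotypes, without passing the test. Cdkn1a (ENSMUSG00000023067) lies at chr17:29090976-29100727 on the plus strand. Its level was 10.7, 12.2, 9.28 and 7.26 FPM in WT-SFD, 9.01, 7.19, 7.67 and 7.64 in WT-HFD, 17.7, 9.64, 9.04 and 13.7 in KO-SFD and 8.02, 9.47, 7.09 and 8.14 in KO-HFD. The HFD kidneys were close together, between 7.09 and 9.47 FPM, and the SFD kidneys spread upward from that range. The log2 fold change was -0.61 ± 0.201 SE in KO (edgeR adjusted p = 0.137), -0.32 ± 0.201 in WT (adjusted p = 0.826) and -0.47 ± 0.142 averaged (adjusted p = 0.0758). It was -0.40 in KO without KO-SFD replicate 1 and -0.21 in WT without WT-SFD replicate 2. With the thick limb sum as a covariate it was -0.36 in KO and -0.29 averaged (adjusted p = 0.46 and 0.387). The averaged difference was called without WT-SFD replicate 4 (adjusted p = 0.0437) or KO-SFD replicate 3 (0.0396) and by DESeq2 (0.0334). It was -0.36 without KO-SFD replicate 1 and -0.53 without the 3 lymphocyte-rich libraries (adjusted p = 0.177 for the latter). Cdkn1a varied with Krt18 over the 16 libraries (r = 0.704, permutation p = 0.00182, adjusted over the 45 pairs p = 0.0409, rho = 0.756 with permutation p = 0.00105, r = 0.772 without the 2 libraries farthest from the Krt18 median). Within groups r was 0.541 (permutation p = 0.0362, adjusted p = 0.233), and with the urothelium sum as a covariate its averaged diet difference was -0.31 (adjusted p = 0.204).

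Among 20 tested p53 targets and arrest genes, 2 rose and 4 fell on HFD averaged over genotypes, with a list median of -0.20. This was beside 4.48% of all genes called, 2.89% as higher. The 4 that fell were Ccng1 (-0.25, edgeR adjusted p = 0.0193), Bbc3, which encodes the apoptosis inducer PUMA (-0.54, adjusted p = 0.0289), the exonuclease gene Aen (-0.43, adjusted p = 0.0152) and the kinase gene Plk2 (-0.42, adjusted p = 0.0308). Those that rose were Sesn2, a sestrin induced by nutrient and oxidative stress (0.73, adjusted p = 0.0107), and the cyclin-dependent kinase inhibitor Cdkn2c (0.43, adjusted p = 0.0357). On leaving out 1 mouse at a time, the call was lost in 9 of 16 fits for Bbc3, in 10 for Plk2, in 10 for Cdkn2c and in 1 for Ccng1. All 4 calls were also lost without the 3 lymphocyte-rich libraries, where the log2 fold changes were -0.60 for Bbc3, -0.30 for Plk2, 0.40 for Cdkn2c and -0.25 for Ccng1 (adjusted p = 0.0811, 0.21, 0.13 and 0.106). With the thick limb sum as a covariate they were -0.60, -0.42, 0.13 and -0.26 (adjusted p = 0.106, 0.14, 0.501 and 0.106). Bbc3, Plk2 and Cdkn2c were also lost with the urothelium sum as a covariate (-0.45, -0.41 and 0.35, adjusted p = 0.0898, 0.0558 and 0.0899), and Plk2 with library totals without TMM (-0.41, adjusted p = 0.0607). With the thick limb sum as a covariate Sesn2 was at 0.24 (adjusted p = 0.334) and Aen at -0.44 (adjusted p = 0.104), and without the lymphocyte-rich libraries Aen was at -0.43 (adjusted p = 0.0811). Mdm2, the p53 ligase that is also a p53 target, was at -0.09 (adjusted p = 0.567) and Trp53 at 0.01 (adjusted p = 0.969). Of 14 cell division genes tested, 0 were called in either direction by edgeR (3 with an unadjusted p under 0.05), with 13 of 14 above 0 and a list median of 0.29. Of 2 RefSeq windows of Cdkn1a, the upstream one held the p53 response-element decamer at 2 places, starting 73 and 51 bases before its start, and the other held 0, where 7.13% of all windows held a match.

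The effect of the genotype was asked on each diet. On SFD 0 of the 10 genes were called, beside 0.0133% of all genes tested (2 genes), and 0 had an unadjusted p under 0.05, beside 1258 of 15034 genes. On HFD 0 were called, beside 0.00665% (1 gene), and 1, Clu, had an unadjusted p under 0.05, beside 248 of 15034 genes. DESeq2 called 0 of the 10 in either comparison, beside 26 of 15028 genes on SFD and 1 of 15028 on HFD. In the interaction 0 of the 10 and 0% of all genes passed, with 486 of 15034 genes at an unadjusted p under 0.05. Averaged over the diets 0 of the 10 passed for genotype, beside 0.0133% of all genes. Groups of 4 against 4 that did not overlap were found for 4% of genes on SFD and 1.32% on HFD, and for 5.02% and 8.87% of genes for the diet in WT and KO mice. Among the 10 this held for Fgb in KO mice and for no other gene. The median log2 fold change of KO against WT over the 10 genes was 0.26 on SFD and 0.24 on HFD, 8 of 10 being above 0 in each (median of all genes tested within 0.01 of 0). The median on HFD was 0.04 without KO-HFD replicate 1, and that on SFD ran from 0.14 to 0.43 over the mice left out and was 0.15 with the urothelium sum as a covariate. For Fgb the KO difference was -0.80 on SFD (95% interval -2.06 to 0.47) and -0.38 on HFD (95% interval -1.38 to 0.61), and it was -0.18 on SFD without WT-SFD replicate 2 and -0.13 on HFD without WT-HFD replicate 3. The median SE of a log2 fold change over all genes was 0.167, and those of Havcr1, Lcn2, Krt18, Krt19 and Fgb for genotype on either diet were over 0.4. At this depth and number of mice, genotype differences in these genes could go undetected even when larger than their SE. For Krt18 on SFD, a difference of 0.84 did not pass (edgeR adjusted p = 0.629).

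**Figure D5:**
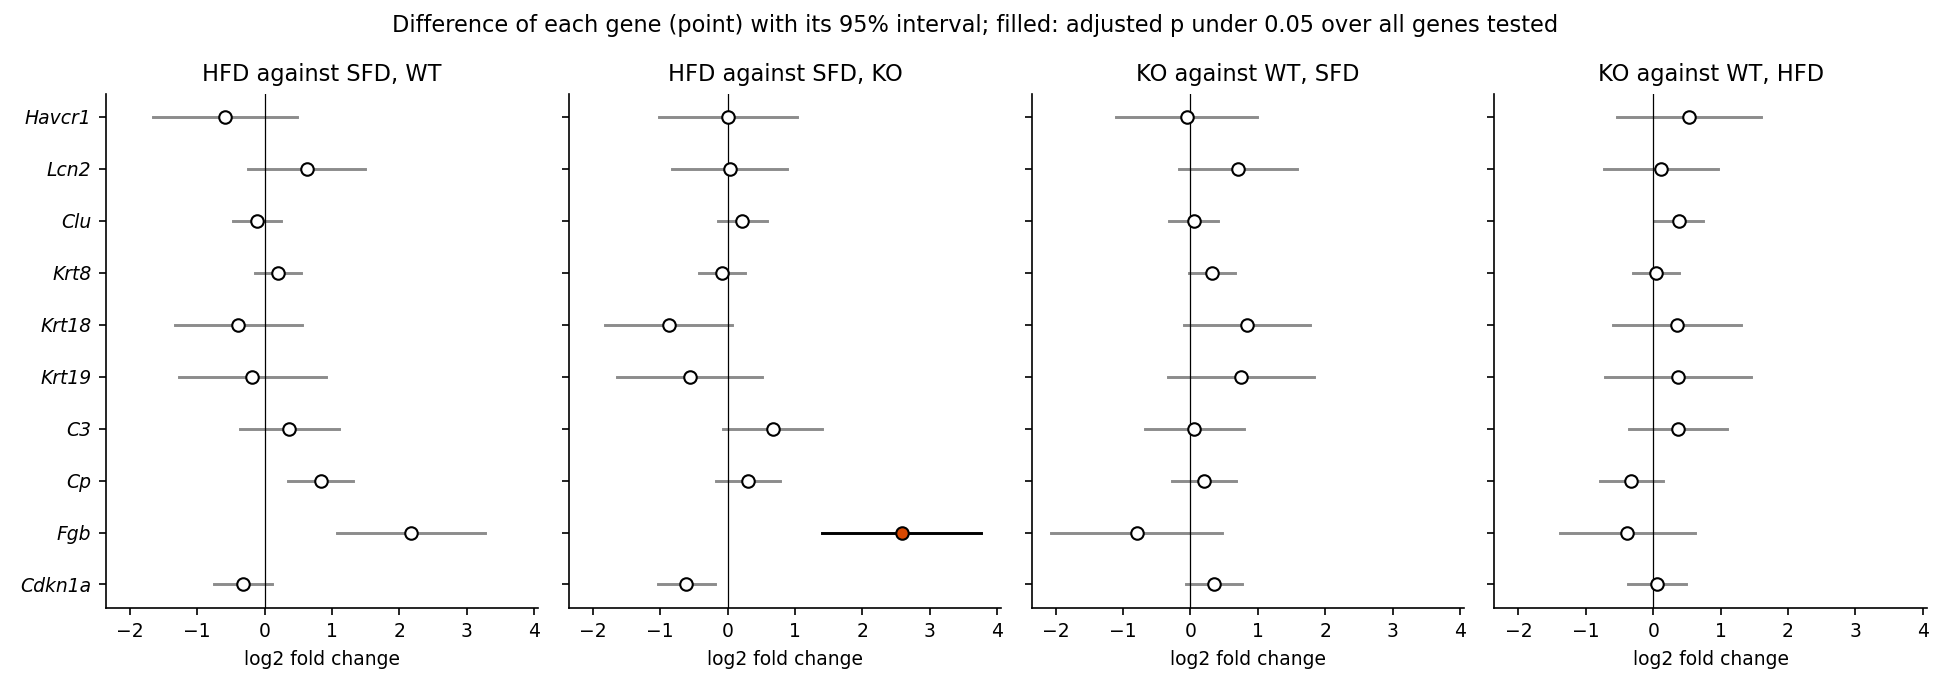
Log2 fold change of each of the 10 genes (point) with its 95% interval (bar) from the edgeR fit, for HFD against SFD in WT and KO kidneys and for KO against WT on SFD and HFD. The 1 filled point, Fgb in KO kidneys at 2.59, passed an adjusted p of 0.05 over all genes tested.

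Fgb and Cp also varied together over the 16 libraries before adjustment (r = 0.675, permutation p = 0.00395, adjusted over the 45 pairs p = 0.0592, rho = 0.671 with permutation p = 0.00537, r = 0.543 without the 2 libraries farthest from the Cp median). Within groups this was 0.447 (permutation p = 0.154). Of the 45 pairs of members, 2 had an adjusted p under 0.05, both positive and both with Krt18. Within groups 0 pairs passed by Pearson's r, and by Spearman's rho Lcn2 and Krt18 passed (rho = 0.835, permutation p = 0.00052, adjusted p = 0.0234, Pearson r = 0.746 with adjusted p = 0.0974). The genes most like Fgb over the 16 libraries were Npl (r = 0.91), Tfpi2 (0.90) and Slc16a10 (0.90). Those most like Cp were Slc7a12 (r = 0.93), Prlr (0.85) and the unnamed gene model Gm26518 (0.83), and genes like Cdkn1a included Glt8d2 (0.87) and Prmt2 (0.86). For C3 they were Trpv2 (r = 0.85), Fgd2 (0.84) and Mcm3 (0.84), for Lcn2 Mxra8 (0.87), Colec12 (0.85) and Fibin (0.83), and for Havcr1 RP23.223M20.2 (0.85), Atg16l2 (0.80) and Prpf3 (0.78). Clu was most like the gene models Gm3222, Gm10291 and Gm3534 (r = 0.87 for each).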

How the data were processed

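Kidney RNA, depleted of ribosomal RNA per the labels, was sequenced from 16 mice. Per the methods of the study, a sequencing company trimmed the kidney reads, and the authors mapped them to GRCm38/mm10 (TopHat) and counted them per gene (featureCounts); the deposited values are these raw counts. For annotating the genes the methods name a BiomaRt version. Strand setting, the gene models used in counting and the handling of reads with several matches are not given in the sources used here. The aorta table was not used here.

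From the counts, edgeR 4.0.16 (R 4.3.3) fitted 1 model to all 16 libraries (TMM factors, filterByExpr, quasi-likelihood test), with 7 contrasts and Benjamini-Hochberg adjustment over 15034 genes. Genes were called at an adjusted p under 0.05, and counts at 0.001, the limit in the study's methods, were kept as an alternative. DESeq2 1.42.0 and exact permutation tests were alternatives, as were other scaling factors, no low count filter, fits of the 2 groups compared and leaving out each mouse. Correlations used log2 FPM with a prior count of 2 and 100000 permutations (numpy 2.4.6). Gene positions and exon lengths are those of GENCODE vM21; 8 of the 10 genes matched a RefSeq promoter window. The fit was tested on simulated data beforehand.

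The 10 genes and all lists were chosen with earlier results of these data known, so no test was run on a list. Named were the 10 genes, Egfr, up to 3 called genes per list, direction and comparison with the smallest p, the most abundant gene of each marker list and the 3 genes most like each member, of which 1 is not reported here; Fga, Fgg, C1s1, Plk2, Cdkn2c, Spp1, Mdm2, Trp53, Ahsg and Alb were named beside them after their values were seen. No 2 libraries agreed within counting noise (lowest chi-square per gene 9.90 over 120 pairs). Each library is 1 mouse, and the p-values of group differences set them against the spread between these mice.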

Additional observations from a re-analysis of the deposited data

Results flagged for a closer look

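Lcn2 in WT-HFD replicate 1 stood apart from its group at 7.95 FPM, against 2.75 to 3.64 FPM in the other 3 WT-HFD kidneys: its gap to the nearest of them was 0.83 of the group's range, over the Dixon limit of 0.829 for 4 samples. This was the 1 outlying value in 44 groups of 4 tested (11 genes, the 10 and Egfr, in 4 groups), and chance gives about 5% of groups. The same kidney had the highest Cp level (92.8 FPM) and a lymphocyte marker sum of 313 FPM, and the part of either in the Lcn2 value was not tested. Without it, the WT diet difference of Lcn2 was 0.14 on the log2 scale, against 0.62 with it, and neither passed the test.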

How the results depend on the processing

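At an adjusted p under 0.05, Fgb averaged over genotypes was called in all 23 refits (adjusted p from 8.19e-08 to 0.0289). At the limit of 0.001 it was not called in the edgeR fit to all 16 libraries (adjusted p = 0.00107), and refits lay on both sides. DESeq2 called 263 genes for diet in WT, 695 in KO, 1101 averaged, 26 for genotype on SFD, 17 for genotype averaged and 1 for the interaction (edgeR 137, 346, 674, 2, 2 and 0), with 2 of the 10 genes in WT (Fgb, Cp) and 3 averaged (Fgb, Cp, Cdkn1a). An adjusted p of 0.001 left 23, 48 and 148 genes for diet in WT, KO and averaged, 0 for genotype on SFD or HFD, 1 for genotype averaged, and 0 of the 10 genes in KO or averaged. Fitting the 2 KO groups alone called 228. With no low count filter Fgb passed in WT (1 of the 10) and 4 genes passed for genotype on SFD. RLE factors gave 1 gene for genotype averaged, and library totals 1 there and 1 on SFD. No scaling moved the median of all genes by over 0.1. Added after seeing the data: without the 3 lymphocyte-rich libraries (WT-HFD replicates 1 and 2, KO-HFD replicate 2) 51 genes were called for diet in WT and 369 averaged; with the urothelium sum as covariate 1 gene for genotype on SFD and 2 of the 10 averaged (Fgb, Cp); with the thick limb sum as covariate 28 genes in KO, 0 of the 10 in KO (Fgb 2.53, adjusted p = 0.148) and 264 averaged. The 3 libraries left out are all HFD kidneys, and the thick limb sum did not overlap between the diets in KO mice. A call lost in these fits therefore does not show that a diet effect is absent. Residuals from group means gave 0 correlated pairs by Pearson's r. By Spearman's rho Lcn2 and Krt18 passed (rho = 0.835, adjusted permutation p = 0.0234).

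Leaving out 1 mouse gave 196 to 403 genes for diet in KO, 0 to 1 of the 10 genes in WT and in KO and 1 to 2 averaged, 0 to 4 genes for genotype on SFD, 0 to 1 on HFD and 1 to 3 averaged, and 1 to 3 correlated pairs. The KO count was 196 without KO-SFD replicate 2, 197 without KO-HFD replicate 4 and 207 without KO-HFD replicate 3. No paired analysis was possible because the labels give no replicate number shared between groups.

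Signs turned only for differences that were not called. Havcr1 on HFD in KO was -0.0014 with RLE factors, -0.010 with DESeq2, -0.11 in log2 FPM and -0.36 without the lymphocyte-rich libraries, where Lcn2 was -0.046. Havcr1 for genotype on SFD was 0.0705 in log2 FPM. With the urothelium sum Krt19 was 0.21 in WT, 0.26 in KO and 0.24 averaged, Clu averaged -0.0046 and C3 for genotype on SFD -0.14. With the thick limb sum Clu was -0.31 in KO and -0.31 averaged, Havcr1 averaged 0.025 and Krt8 averaged -0.14. Over single mice left out, the ranges that crossed 0 were, in WT, Krt19 -0.46 to 0.14 and Fgg -0.029 to 0.54; in KO, Havcr1 -0.36 to 0.32, Lcn2 -0.16 to 0.29 and Krt8 -0.16 to 0.10; for genotype on SFD, Havcr1 -0.37 to 0.50, Clu -0.014 to 0.13, C3 -0.25 to 0.29 and Egfr -0.010 to 0.17; on HFD, Lcn2 -0.057 to 0.60, Krt8 -0.038 to 0.19, Krt18 -0.079 to 0.67, Cdkn1a -0.029 to 0.14 and Egfr -0.19 to 0.025; averaged diet, Krt8 -0.013 to 0.15 and Clu -0.017 to 0.12; and the Fgb interaction -0.21 to 0.70. The cause of these changes was not tested.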

Other observations

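Some segment markers of the nephron were also called for the averaged diet effect, beside 4.48% of all genes tested (2.89% called as higher). Of 12 proximal tubule markers, 5 rose on HFD averaged over genotypes and 0 fell, among them the glucose transporter gene Slc5a2 (SGLT2), from 374 ± 78.2 to 863 ± 98.0 FPM in WT and from 342 ± 23.8 to 992 ± 358 FPM in KO kidneys (log2 fold change 1.37, edgeR adjusted p = 2.08e-05), and the organic anion transporter gene Slc22a8 (0.98, adjusted p = 0.000138). Among the other 3, Slc5a12 and Gatm did not pass with the thick limb sum as a covariate (0.89 and 0.80 against 0.94 and 1.04 without it, adjusted p = 0.0911 and 0.0937). Of 7 thick ascending limb markers, 2 fell, Sostdc1 (-0.54, adjusted p = 0.00768) and Umod, which encodes uromodulin (-0.41, adjusted p = 0.0494). Among 5 distal convoluted tubule markers, 2 rose, Pvalb (1.23, adjusted p = 0.000427) and Slc12a3 (0.40, adjusted p = 0.0308). On leaving out each of the 16 mice in turn, the Umod call was lost in 12 fits and the Slc12a3 call in 6. Both were also lost without the 3 lymphocyte-rich libraries (-0.44 for Umod and 0.41 for Slc12a3, adjusted p = 0.156 and 0.106) and with the urothelium sum as a covariate (-0.37 and 0.32, adjusted p = 0.0988 and 0.0783). Umod was lost with library totals without TMM (-0.40, adjusted p = 0.0913) and with no low count filter (-0.42, adjusted p = 0.0776) as well. With the thick limb sum as a covariate Slc12a3 was at 0.12 (adjusted p = 0.491), Pvalb at 0.80 (adjusted p = 0.0594), Umod at -0.06 (adjusted p = 0.70) and Sostdc1 at -0.27 (adjusted p = 0.227); Umod and Sostdc1 are themselves part of that sum.

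For the averaged diet effect edgeR called 0 of 10 iron handling and 0 of 9 immediate early genes tested, beside 4.48% of all genes. Each list had 1 gene at an unadjusted p under 0.05, and the list medians were 0.11 and 0.40 on the log2 scale. Leptin (Lep), a fat cell hormone, was the 1 called gene of 8 adipocyte markers: it was 0.616 ± 0.698 FPM in WT-SFD, 5.01 ± 2.05 in WT-HFD, 0.181 ± 0.0299 in KO-SFD and 5.96 ± 7.47 in KO-HFD (log2 fold change 3.995, adjusted p = 0.000911). Its KO-SFD mean was close to the level of 3 reads (0.145 to 0.164 FPM), and its KO-HFD SD exceeded the mean. The size of this fold is therefore imprecise. Of the 8 markers 6 had an averaged log2 fold change below 0 (list median -0.47), and the mean of their sum was lower on HFD in both genotypes, with overlapping kidneys. In 14 marker lists (S3 segment, collecting duct principal and intercalated cells, thin limb, urothelium, podocyte, endothelium, fibroblast, smooth muscle, macrophage, lymphocyte, neutrophil, adrenal gland and red blood cell) 0 genes were called by edgeR for the averaged diet effect. An unadjusted p under 0.05 was found for 5 of 6 S3 genes, 5 of 7 principal cell genes, 4 of 6 podocyte genes and 3 of 7 genes each of intercalated cells and thin limb, beside 2693 of all 15034 genes, and for 0 to 2 genes in each of the other 9 lists.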
